A study of Mus musculus with 12 samples.

Results

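Mertk, Axl, Tyro3, Gas6, Pros1, Timd4, Mfge8, Stab1 and Scarf1 encode receptors and bridging molecules by which phagocytes recognise dying cells, and their levels were followed in conventional dendritic cells of mouse spleen. The 9 genes were taken as a list by their known function, with earlier results of these data known, from 19938 genes with a value on the arrays. Of these, 14953 genes were bright enough to be tested, among them 8 of the 9; Pros1 was too dim and is described by its values. RNA came from the conventional dendritic cell branches cDC1 and cDC2, sorted as mature cells at steady state after spleens had been digested with collagenase B and DNase. The mice were WT, lacked the receptor tyrosine kinase FLT3 (Flt3 KO) or lacked its ligand (Flt3L KO), a growth factor on which dendritic cell development depends. Every pairing of genotype with cell type had 2 arrays, called biological replicates in the labels, which makes 12 arrays in 6 groups. The labels give neither the knockout alleles, nor whether other cells of these mice also lack the gene, nor how many mice each array holds. The p-values below therefore reflect only how far arrays of the same group lay apart, pooled over the 6 groups and moderated across genes.

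Dying cells expose phosphatidylserine on their surface. TIM4, the product of Timd4, and the scavenger receptor stabilin-1, the product of Stab1, bind it directly, whereas the receptor tyrosine kinases of the TAM family, TYRO3, AXL and MERTK, bind it through the bridging proteins GAS6 and protein S, the product of Pros1. MFG-E8, the product of Mfge8, bridges phosphatidylserine to integrins on the phagocyte, and SCARF1 is a scavenger receptor that takes up dying cells through the complement protein C1q. In the spleen, MERTK and TIM4 are best known from macrophages, while AXL is also known from dendritic cells, where it can restrain inflammatory signalling.

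The sorted cells carried the markers of their labels. All 5 cDC1 markers (Xcr1, Clec9a, Cd8a, Irf8 and Itgae) were higher in cDC1 and all 5 cDC2 markers (Sirpa, Itgam, Irf4, Clec4a4 and Esam) were higher in cDC2, within each genotype. Flt3 fell in Flt3 KO cDC1 and cDC2 (Benjamini-Hochberg adjusted p = 5.26e-10 and 3.17e-09, limma), while Flt3l fell in Flt3L KO cDC2 (adjusted p = 0.0267), a call lost when any 1 of the 4 arrays compared was left out (0.0563 to 0.209). In Flt3L KO cDC1 Flt3l read 119 and 129, above the 114 and 113 of WT cDC1, and was not called (adjusted p = 0.403, limma). The sources used here do not say which part of Flt3l is removed, so its probe set does not check those labels. Median array intensity was 59.0 to 63.0 and the lower quartile 23.3 to 25.7. Replicate 1 of WT cDC1 stood apart, with the highest lower quartile, and the WT cDC1 replicates differed more than others (SD of the log2 difference over genes 0.21, against 0.131 to 0.154). Differences between groups had a standard error (SE) of 0.0937 on the log2 scale for the median gene.

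Loss of FLT3L was accompanied by more Mertk and Axl transcript in cDC2 and by less Timd4 transcript in both cell types. In Flt3L KO cDC2 against WT cDC2, Mertk rose 2.0-fold, Axl rose 1.92-fold and Timd4 fell 1.57-fold. In Flt3L KO cDC1 against WT cDC1, Timd4 fell 1.87-fold and was the one member called. Tyro3, Gas6 and Mfge8 passed the test in no comparison, although Tyro3 and Mfge8 passed between cell types in some alternative settings given with their values, and no member passed it in Flt3 KO cells against WT. These are bulk measurements, in which a change in the number of cells of one kind and a change in the RNA of each cell cannot be told apart.

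**Figure D1:**
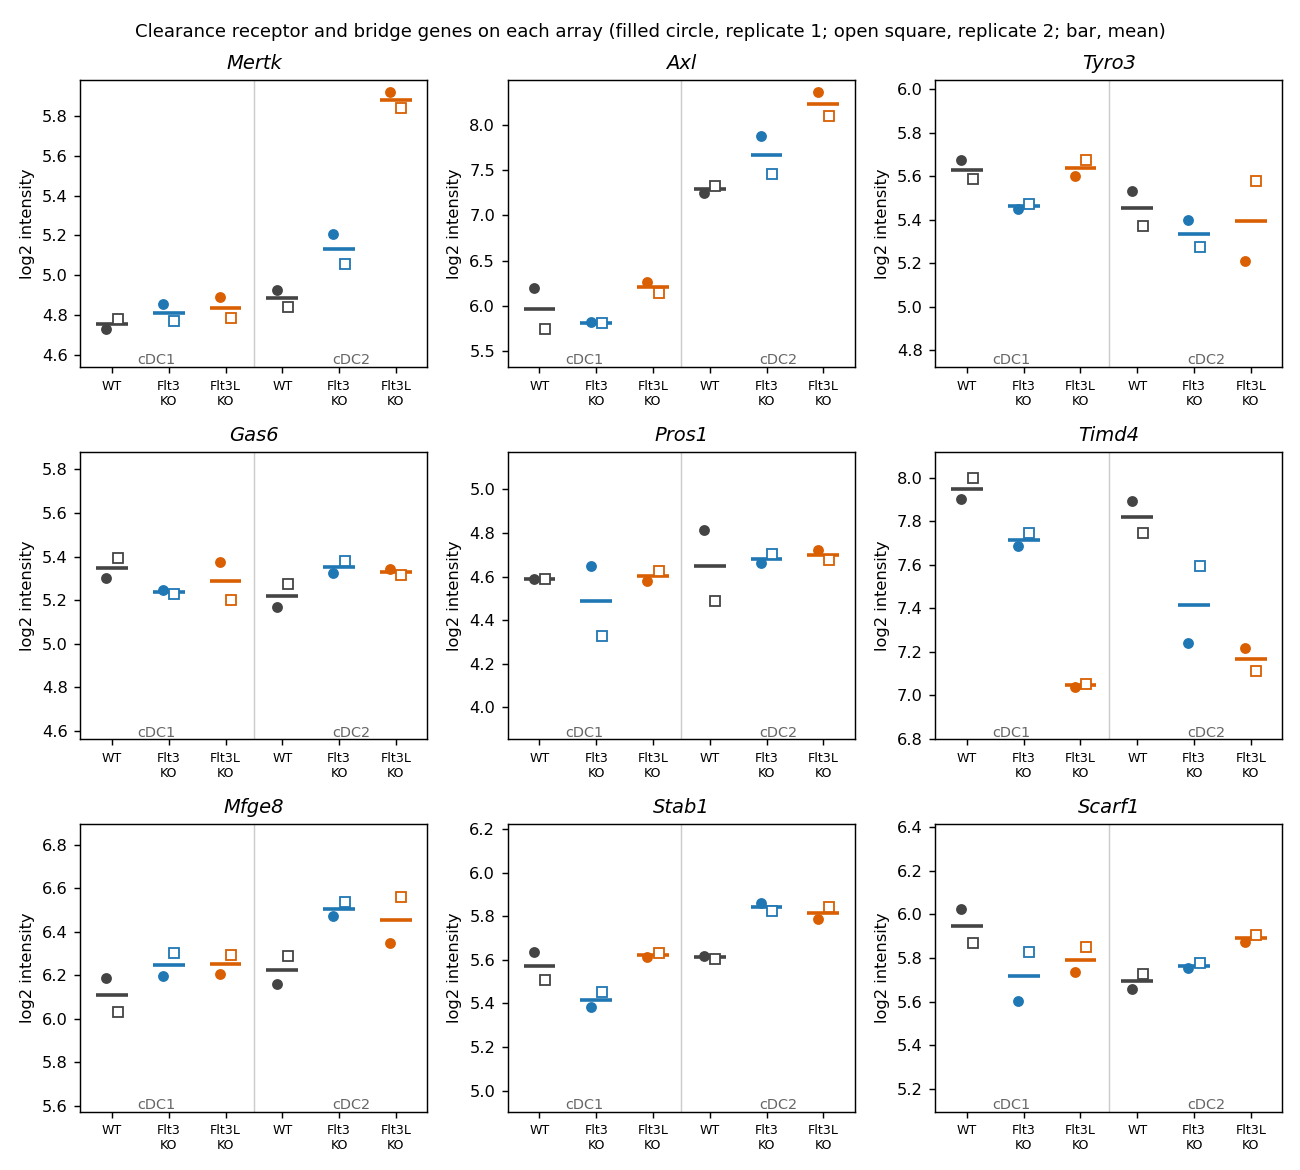
Each panel plots the log2 intensity of 1 gene on the 12 arrays, with cDC1 groups on the left and cDC2 groups on the right; circles are replicate 1, squares replicate 2 and bars group means, and the vertical scale differs between panels. Mertk stands out in Flt3L KO cDC2, Axl is higher on every cDC2 array than on any cDC1 array, and Timd4 is lowest in the Flt3L KO groups.

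Called means a Benjamini-Hochberg adjusted p under 0.05 in limma, adjusted over all 14953 genes. Between cDC1 and cDC2, 2 of the 8 members were called in WT (Scarf1 higher and Axl lower in cDC1), against 39.4% of all genes. In Flt3 KO mice 4 were called (Timd4 higher, Axl, Mertk and Stab1 lower in cDC1), against 35.5% of all genes, and in Flt3L KO mice 2 (Axl and Mertk, both lower in cDC1), against 34.8%. These shares are high for genes at large, so a call between the cell types is common for any gene on the array.

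Knockout differences were rarer. In Flt3 KO cells against WT, 0 of 8 members were called in cDC1, where 0.0803% of all genes were called (12 genes, or 1132 without WT cDC1 replicate 2, with 0 members in each case), and 0 of 8 in cDC2, where 0.107% were. At an unadjusted p under 0.05, limma passed 2 of 8 members and 1873 of all genes in cDC1, and 5 of 8 members and 1089 of all genes in cDC2. In Flt3L KO cells against WT, 1 of 8 members was called in cDC1, against 1.19% of all genes, and 3 of 8 in cDC2, against 1.95% of all genes. The median log2 difference of the 8 members in that last comparison was 0.20, and that of all genes was 0.02. Between the knockouts, 1 member was called in cDC1 (Timd4, lower in Flt3L KO), against 0.883% of all genes, and 1 in cDC2 (Mertk, higher in Flt3L KO), against 0.93%. The Flt3L KO effect differed between cDC2 and cDC1 for 1 member, Mertk, against 0.495% of all genes. The Flt3 KO effect differed for 0 of 8 members and for 0% of all genes, although 3 members and 1342 of all genes had an unadjusted p under 0.05 in limma. Both knockouts were set against the same WT arrays, so their differences from WT are not independent of each other.

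**Figure D2:**
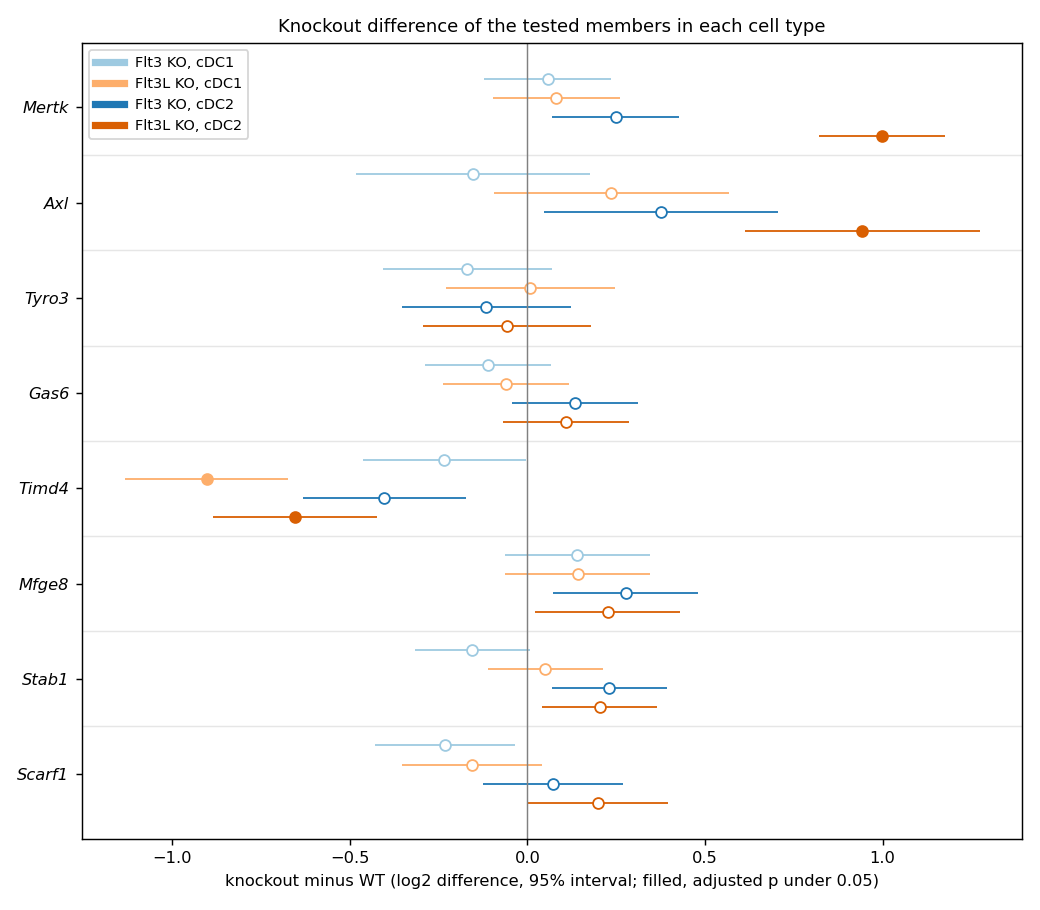
The horizontal axis gives the log2 difference of each knockout from WT with its 95% interval for the 8 tested genes, in cDC1 (light colours) and cDC2 (dark colours); filled points passed the adjusted threshold. The 4 filled points are Mertk and Axl in Flt3L KO cDC2, to the right of 0, and Timd4 in both Flt3L KO cell types, to the left.

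The promoters of the 3 genes that differed between Flt3L KO and WT cells are given here, since Mertk and Axl rose in the same cells while Timd4 fell. The RefSeq promoter table (GRCm38.p6) held a promoter for 8 of the 9 members. Each sequence is the 250 bases before the gene start, read in the direction of the gene. They lie at chr2:128698665-128698914 on the plus strand for Mertk, chr7:25788734-25788983 on the minus strand for Axl, and chr11:46810549-46810798 on the plus strand for Timd4. Capitals mark matches to the motifs described after the sequences.
Mertk: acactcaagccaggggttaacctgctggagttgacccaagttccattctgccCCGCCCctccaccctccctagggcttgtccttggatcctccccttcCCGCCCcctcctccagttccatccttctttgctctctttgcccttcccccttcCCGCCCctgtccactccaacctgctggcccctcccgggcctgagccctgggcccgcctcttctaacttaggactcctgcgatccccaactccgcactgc
Axl: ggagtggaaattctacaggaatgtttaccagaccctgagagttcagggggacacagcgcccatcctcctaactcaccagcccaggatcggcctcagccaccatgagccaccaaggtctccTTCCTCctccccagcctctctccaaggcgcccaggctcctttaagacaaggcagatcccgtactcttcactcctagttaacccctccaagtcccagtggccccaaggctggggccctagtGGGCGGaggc
Timd4: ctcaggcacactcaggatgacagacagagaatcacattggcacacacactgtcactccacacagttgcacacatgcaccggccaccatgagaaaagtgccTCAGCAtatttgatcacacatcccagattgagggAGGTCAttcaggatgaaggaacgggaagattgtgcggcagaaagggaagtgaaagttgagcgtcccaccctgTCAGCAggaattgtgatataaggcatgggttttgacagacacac
Of 6 short motifs searched on both strands, none matched in all 3 windows. The Mertk promoter held 3 copies of the GC box GGGCGG, a site of SP-family factors, all on the opposite strand, at -198 to -193, -152 to -147 and -99 to -94 from the gene start. The Axl promoter held 1 GC box at -10 to -5 and 1 core site of the myeloid factor PU.1, GAGGAA, on the opposite strand at -130 to -125. The Timd4 promoter held 1 nuclear receptor half-site AGGTCA at -116 to -111, and 2 MAF half-sites TGCTGA on the opposite strand, at -150 to -145 and -44 to -39. The STAT site TTCNNNGAA and the AP-1 site TGANTCA did not occur in these windows. Among 32851 promoter windows of this length, 32.7% held the GC box, 23.3% the PU.1 core, 14% the nuclear receptor half-site, 16.1% the MAF half-site, 7.02% the STAT site and 6.75% the AP-1 site. The motifs did not overlap one another in these windows, and a match is a run of letters, not a measured binding site.

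Mertk (probe set 10475890) encodes the TAM kinase that macrophages rely on most to engulf dying cells. Its intensity was 26.5 and 27.5 on the WT cDC1 arrays and 30.4 and 28.6 on the WT cDC2 arrays (replicates 1 and 2). In Flt3 KO mice it was 28.9 and 27.3 in cDC1 and 36.9 and 33.3 in cDC2. In Flt3L KO mice it was 29.6 and 27.6 in cDC1 and 60.6 and 57.4 in cDC2. Both Flt3L KO cDC2 arrays lay far above the other 10, and Flt3 KO cDC2 lay above every array of the remaining 4 groups. In the order of group means, WT cDC1, Flt3 KO cDC1, Flt3L KO cDC1 and WT cDC2 overlapped with their neighbours.

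Flt3L KO cDC2 exceeded WT cDC2 in Mertk by 1.00 ± 0.08 (SE) on the log2 scale, with a Benjamini-Hochberg adjusted p of 8.17e-05 in limma. It also exceeded Flt3 KO cDC2 by 0.75 ± 0.08 (adjusted p = 0.00175), a difference of means that does not use the WT arrays, although its SE comes from all 12 arrays. In cDC1 the Flt3L KO difference from WT was 0.08 ± 0.08 (adjusted p = 0.654). The difference between the effects in cDC2 and cDC1 was itself 0.92 ± 0.12, with a 95% interval of 0.66 to 1.17 and an adjusted p of 0.00626. These 3 calls on Mertk were kept in all 19 alternative settings that tested the gene, with adjusted p-values of up to 0.0435 for the difference of effects, up to 0.0428 between the knockouts and up to 0.00317 against WT. In 12 of these settings 1 array was left out, so its group kept 1 array, which was assumed to vary like the other groups. Without WT cDC1 replicate 1 the difference of effects was 0.94 (adjusted p = 0.0131).

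For Flt3 KO cDC2 the Mertk difference from WT was 0.25 ± 0.08 (adjusted p = 0.457, limma), with arrays that did not overlap, and for Flt3 KO cDC1 it was 0.06 ± 0.08 (adjusted p = 0.795). Between the cell types, Mertk was 1.25-fold lower in cDC1 than in cDC2 of Flt3 KO mice (adjusted p = 0.00782) and 2.06-fold lower in Flt3L KO mice (adjusted p = 4.46e-07), while in WT the difference was 1.09-fold (adjusted p = 0.241). The Flt3 KO call was lost without Flt3 KO cDC1 replicate 2 (adjusted p = 0.0698) or without Flt3 KO cDC2 replicate 1 (adjusted p = 0.0807). The values of Mertk in WT cDC2 and in all 3 cDC1 groups were close to the lower quartile of the arrays, so background may take up much of them. The 2.0-fold rise and the difference of effects are thus set against a baseline near background, and folds may be understated.

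Axl (probe set 10561104) encodes the TAM kinase that binds GAS6 most tightly. Its intensity was 73.1 and 53.5 in WT cDC1 and 152 and 161 in WT cDC2. In Flt3 KO mice it was 56.4 and 56.1 in cDC1 and 234 and 176 in cDC2. In Flt3L KO mice it was 76.8 and 70.6 in cDC1 and 330 and 274 in cDC2. All 6 cDC2 arrays lay above all 6 cDC1 arrays, and among cDC2 the genotypes did not overlap, from WT through Flt3 KO to Flt3L KO. The WT cDC1 replicates were farther apart than those of any other member in that group.

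Axl was 2.5-fold lower in cDC1 than in cDC2 of WT mice (adjusted p = 1.42e-05, limma), 3.61-fold lower in Flt3 KO mice (adjusted p = 6.35e-07) and 4.08-fold lower in Flt3L KO mice (adjusted p = 2.85e-07). The WT difference was -1.32 ± 0.15 (SE) on the log2 scale, and -1.55 without WT cDC1 replicate 1. These cell type calls on Axl held in all 20 alternative settings.

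Flt3L KO cDC2 exceeded WT cDC2 in Axl by 0.94 ± 0.15 on the log2 scale (adjusted p = 0.00845, limma). That call was lost without WT cDC2 replicate 1 (adjusted p = 0.0798), WT cDC2 replicate 2 (0.0627) or Flt3L KO cDC2 replicate 1 (0.0966). The Flt3L KO difference was 0.24 ± 0.15 in cDC1 (adjusted p = 0.461). The difference of effects between cDC2 and cDC1 was 0.71 ± 0.22, with a 95% interval of 0.24 to 1.17 (adjusted p = 0.177), so a larger effect in cDC2 was not shown for Axl at the threshold. Without WT cDC1 replicate 2, whose Axl value was the lower of the pair, that difference was 0.93 (adjusted p = 0.0346). For Flt3 KO against WT the values were 0.38 ± 0.15 in cDC2 (adjusted p = 0.594) and -0.15 ± 0.15 in cDC1 (adjusted p = 0.687), and the latter turned to 0.07 without WT cDC1 replicate 1. Flt3L KO exceeded Flt3 KO cDC2 by 0.57 ± 0.15 (adjusted p = 0.120), which passed the threshold without either of the WT cDC1 replicates (adjusted p = 0.0481 in each case).

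Tyro3 (probe set 10475027), the remaining TAM kinase, ranged from 37.1 to 51.1 over the 12 arrays. The WT cDC1 arrays read 51.0 and 48.1 and the WT cDC2 arrays 46.2 and 41.4. In Flt3L KO cDC2 they read 37.1 and 47.8, on either side of the other cDC2 arrays. Tyro3 was not called in any of the 11 comparisons. Between Flt3L KO cell types it was higher in cDC1 by 0.24 on the log2 scale (adjusted p = 0.109, limma), which passed under quantile normalization (0.0471) and without Flt3L KO cDC2 replicate 2 (0.43, adjusted p = 0.00921). Its Flt3L KO difference in cDC2 was -0.06 ± 0.11 (SE), with a 95% interval of -0.29 to 0.18. In measured intensity, this leaves out changes of the size of those of Mertk and Axl. All Tyro3 values lay under the median of the arrays, so background may understate a change in its transcript.

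The bridging molecules of the TAM kinases did not pass the test. Gas6 (probe set 10577164) read between 35.9 and 42.0 on the 12 arrays, and its 6 group means spanned 0.13 on the log2 scale, the narrowest span of the 9 genes. In Flt3L KO cDC2, where Mertk and Axl rose, Gas6 read 40.7 and 39.8, against 35.9 and 38.7 in WT cDC2, a log2 difference of 0.11 ± 0.08 (95% interval -0.07 to 0.29, adjusted p = 0.594, limma). Pros1 (probe set 10436456) read between 20.1 and 28.1 and was under the lower quartile of its own array on 3 of 12 arrays. In Flt3L KO cDC2 it read 26.4 and 25.5, against 28.1 and 22.4 in WT cDC2. With dim genes kept in the fit, Pros1 passed in none of the comparisons, and its smallest adjusted p was 0.284, for cDC1 against cDC2 in Flt3 KO mice.

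Timd4 (probe set 10375472) encodes TIM4, which tethers dying cells by phosphatidylserine. Its intensity was 239 and 256 in WT cDC1 and 237 and 215 in WT cDC2. In Flt3 KO mice it was 206 and 215 in cDC1 and 151 and 193 in cDC2. In Flt3L KO mice it was 131 and 133 in cDC1 and 149 and 138 in cDC2. All 4 Flt3L KO arrays lay below the other 8, and in each cell type the Flt3 KO arrays lay between those of Flt3L KO and WT.

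In cDC1, Timd4 fell by 0.90 ± 0.11 (SE) on the log2 scale in Flt3L KO against WT (adjusted p = 0.00246, limma), a call kept in all 20 alternative settings, with adjusted p-values of up to 0.0348. In cDC2 it fell by 0.65 ± 0.11 (adjusted p = 0.00866), a call lost without WT cDC2 replicate 1 (adjusted p = 0.0959) or Flt3L KO cDC2 replicate 2 (0.0634). The difference of these effects between cDC2 and cDC1 was 0.25 ± 0.15, with a 95% interval of -0.08 to 0.58 (adjusted p = 0.456). The fall of Timd4 was thus called in both cell types, and its size was not shown to differ between them.

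Flt3 KO values of Timd4 were lower than WT by amounts that did not pass, with differences of -0.23 ± 0.11 in cDC1 (adjusted p = 0.393, limma) and -0.40 ± 0.11 in cDC2 (adjusted p = 0.277). Set directly against each other, Flt3L KO was below Flt3 KO by 0.67 ± 0.11 in cDC1 (adjusted p = 0.0165). That call was lost when any of the 4 arrays compared was left out (adjusted p = 0.0621 to 0.147). In cDC2 the difference was -0.25 ± 0.11 (adjusted p = 0.344). Between cell types, Timd4 was 1.23-fold higher in Flt3 KO cDC1 than in Flt3 KO cDC2 (adjusted p = 0.0439), which passed in 7 of 20 alternative settings and was 0.12 on the log2 scale (adjusted p = 0.421) without Flt3 KO cDC2 replicate 1.

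Mfge8, Stab1 and Scarf1 were called in no knockout comparison, and between cell types their called differences were at most 1.34-fold. Mfge8 (probe set 10564713) read 72.9 and 65.4 in WT cDC1, 71.5 and 78.3 in WT cDC2, and 81.4 and 94.2 in Flt3L KO cDC2. Its highest group mean was in Flt3 KO cDC2, at 88.7 and 92.7, against 73.3 and 78.9 in Flt3 KO cDC1, a log2 difference of -0.25 ± 0.09 (SE) for cDC1 against cDC2 that fell just short of the threshold (adjusted p = 0.0530, limma). That difference passed in 7 of 20 alternative settings (adjusted p = 0.0344 to 0.0428), which were the larger filter on dim genes, only the arrays compared, the crossed block, and leaving out either WT cDC1 or either Flt3L KO cDC2 replicate. Mfge8 was called in none of the 11 comparisons as fitted here.

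Stab1 (probe set 10418506) read 49.8 and 45.5 in WT cDC1, 49.1 and 48.7 in WT cDC2, 41.8 and 43.8 in Flt3 KO cDC1 and 58.2 and 56.6 in Flt3 KO cDC2. The Flt3 KO cell types did not overlap, and Stab1 was 1.34-fold lower in Flt3 KO cDC1 than in Flt3 KO cDC2 (adjusted p = 0.000544, limma), a call kept in all 19 alternative settings that tested it. In WT the same comparison gave -0.04 ± 0.07 (adjusted p = 0.713), and the difference of the Flt3 KO effects between the cell types, 0.39 ± 0.11, did not pass (adjusted p = 0.458). In Flt3L KO mice Stab1 read 49.0 and 49.5 in cDC1 and 55.3 and 57.3 in cDC2 (adjusted p = 0.0645), a difference that passed without either WT cDC1 replicate (0.0430 in each case).

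Scarf1 (probe set 10378637) read 65.1 and 58.4 in WT cDC1 and 50.5 and 53.0 in WT cDC2, and was 1.19-fold higher in WT cDC1 (adjusted p = 0.0421, limma). That call was kept in 8 of 19 alternative settings and was lost without WT cDC1 replicate 1, the array that stood apart (adjusted p = 0.237). In the knockouts Scarf1 read between 48.6 and 59.95, and neither knockout passed against WT in either cell type.

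**Figure D3:**
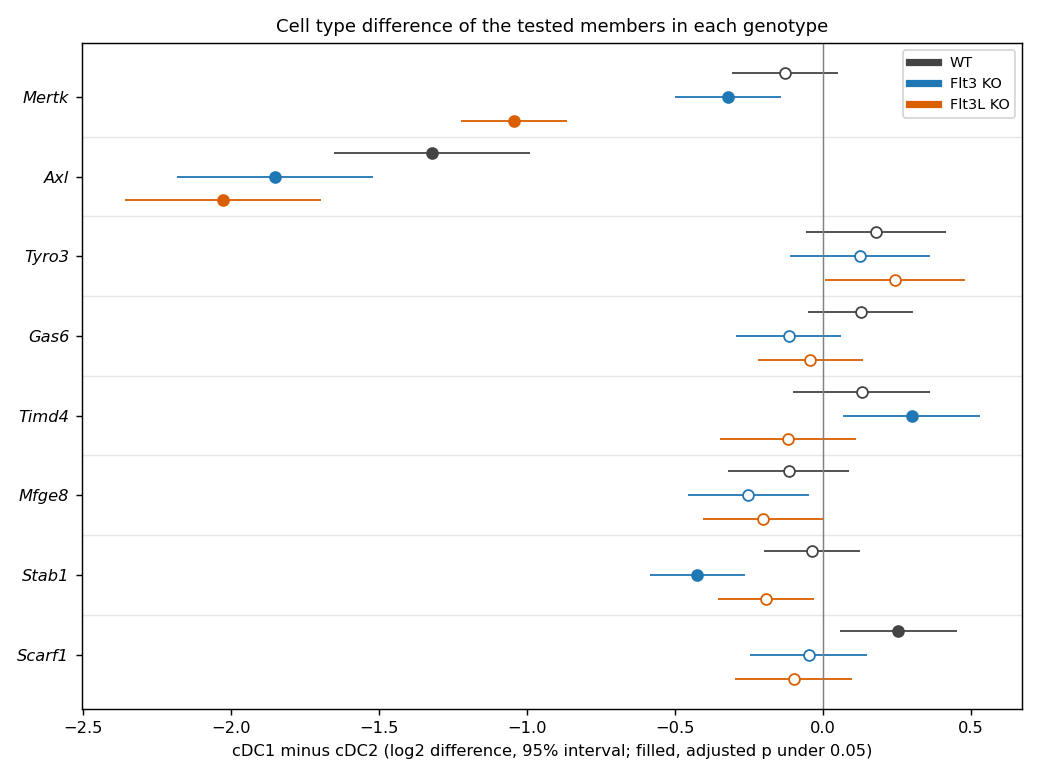
The horizontal axis gives the log2 difference of cDC1 from cDC2 with its 95% interval for the 8 tested genes in WT, Flt3 KO and Flt3L KO mice; filled points passed the adjusted threshold. Axl is far to the left of 0 in each genotype, Mertk is so in Flt3L KO mice, and the other genes lie within 0.5 of 0.

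Genes with related roles were examined as 7 lists of 113 genes, 103 of them tested and none of them among the 9 members. Between cDC1 and cDC2, 57.3% of these 103 genes were called in WT, 56.3% in Flt3 KO and 57.3% in Flt3L KO mice. Of all genes, 21% were called higher and 18.4% lower in WT cDC1, and of the 103 related genes 19 were higher and 40 lower. Uptake receptors split between the branches: Clec9a, which senses actin exposed by dead cells, and Cd36, a scavenger receptor, were 18.1-fold and 20.0-fold higher in WT cDC1. Cd300lf, another phosphatidylserine receptor, and Lrp1, a large endocytic receptor that also takes up dying cells, were 13.7-fold and 5.49-fold higher in WT cDC2. In WT, 4 of 19 tested receptors were higher and 8 lower in cDC1. Among bridging molecules, 4 of 15 were higher and 6 lower, with Thbs1, a bridge between dying cells and CD36, 11.9-fold lower in cDC1. Axl thus lay with Cd300lf and Lrp1 on the cDC2 side, while Mertk, Timd4, Gas6, Tyro3 and Stab1 were not called between WT cell types.

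Genes of the remaining role lists were called in both directions between the WT cell types, and the split was not tested. Of 15 engulfment genes, 2 were higher and 6 lower in cDC1, among them the guanine nucleotide exchange factor Trio (2.28-fold higher) and Elmo1 (2.12-fold lower), which helps to activate RAC1. Of 18 phagosome genes, 1 was higher (Rab7) and 6 lower, with the oxidase subunit Cybb 23.6-fold lower. Of 12 sterol and nuclear receptor genes, 2 were higher and 6 lower, with the transglutaminase Tgm2 30.4-fold lower. Of 11 don't-eat-me and scramblase genes, 5 were higher and 4 lower, the largest being Sirpa, which is also one of the cDC2 markers. Of 13 partners of the TAM kinases, 1 was higher and 4 lower. The one higher was Vkorc1l1, a reductase that regenerates vitamin K for the carboxylation of GAS6 and protein S, at 2.11-fold.

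In Flt3L KO cDC2 against WT cDC2, where Mertk and Axl rose, 12 of the 103 related genes rose and 1 fell. That is 12.6% called, against 1.04% of all genes higher and 0.91% lower. The median log2 difference of the related genes was 0.05, beside 0.02 for all genes. As the lists were chosen with earlier results of these data known, their larger share is not an independent result. The genes that rose belonged to 6 of the lists. Among bridging molecules they were the 3 chains of C1q, which binds dying cells and is also bound by SCARF1, with C1qa up 4.60-fold, C1qb 3.96-fold and C1qc 3.10-fold. The lipid-responsive nuclear receptors Nr1h3 and Pparg, known from macrophages that have taken up dying cells, rose 2.10-fold and 2.25-fold. The receptor gene Cd36 rose 2.46-fold, from 51.1 and 57.7 in WT to 143 and 124. The inhibitory receptor gene Pilra rose 2.22-fold and the receptors of find-me signals S1pr1, which binds a lipid, and P2ry2, which binds nucleotides, rose 1.62-fold and 1.66-fold. Of the TAM partners, Twist1 and Socs3, both brakes on cytokine output, rose by 0.42 and 0.48 on the log2 scale, and the lysosomal gene Lamp1 rose by 0.53. Anxa1, a bridge released by dying cells, fell by 0.40. The calls on Pparg and S1pr1 were lost without WT cDC2 replicate 1 (adjusted p = 0.0536 and 0.0565, limma). Those on Twist1 (adjusted p = 0.0609 to 0.179) and Socs3 (0.0976 to 0.210) were lost without WT cDC2 replicate 1 or 2 or Flt3L KO cDC2 replicate 1. Those on Anxa1 (adjusted p = 0.0945 to 0.247), Lamp1 (0.0708 to 0.134) and P2ry2 (0.0801 to 0.226) were lost when any 1 of the 4 arrays compared was left out.

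Of 15 tested genes of the engulfment machinery, limma called 0 in Flt3L KO cDC2 against WT, with 1 at an unadjusted p under 0.05. With 1.95% of all genes called, a count of 0 in a list of this length does not set it apart. In Flt3L KO cDC1 against WT, 1 of the 103 related genes rose (Rxrb, 0.38 on the log2 scale) and 1 fell (Cd36, by 0.52). The call on Rxrb was lost when any 1 of the 12 arrays was left out (adjusted p = 0.0554 to 0.209, limma), and that on Cd36 without any 1 of the 6 cDC1 arrays or of the WT cDC2 arrays (0.0526 to 0.244) and with the replicate number as a block (0.0575). For Cd36 the difference of effects between cDC2 and cDC1 was 1.82 ± 0.15 (adjusted p = 0.000317, limma). In Flt3 KO cells against WT, 1 of the 103 genes was called in cDC2, C1qa, which rose 2.19-fold, a call lost without WT cDC2 replicate 1 (adjusted p = 0.142), WT cDC2 replicate 2 (0.0863) or Flt3 KO cDC2 replicate 1 (0.123). In Flt3 KO cDC1 no related gene passed the threshold.

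Some markers of macrophages and monocytes also differed in the cells where Mertk and Axl rose. Of these, C1qa, Vcam1 and Lyz2 were also called higher in Flt3 KO against WT cDC2, where no member was called. Lyz2 had means of 726 in WT cDC2, 1213 in Flt3 KO cDC2 and 1218 in Flt3L KO cDC2. At an unadjusted p under 0.05 in either direction, limma passed 12 of 16 tested macrophage markers in Flt3L KO cDC2 and 8 in Flt3 KO cDC2. Of 7 tested monocyte markers it passed 3 in each. Of 18 macrophage markers other than the members, 16 were tested, and in Flt3L KO cDC2 against WT cDC2 6 rose (Vcam1, C1qa, C1qb, C1qc, Nr1h3 and Hmox1) and 2 fell (Adgre1 and Cd209b), with a median log2 difference of 0.31. The C1q genes and Nr1h3 belong to this list and to the related genes above. Vcam1 and Hmox1 had higher means in WT cDC1 (161 and 252) than in WT cDC2 (87.7 and 124), beside 199 and 202 in Flt3L KO cDC2. The C1q genes and Nr1h3 had lower means in WT cDC1 than in WT cDC2. The call on Hmox1, at an adjusted p of 0.0487, was lost when any of the 4 arrays compared was left out (adjusted p = 0.134 to 0.270, limma), and those on Adgre1 and Cd209b were lost without WT cDC2 replicate 1 (0.0574 and 0.0743). The summed intensity of the 18 markers was 4784 to 4912 in WT cDC2, 5440 to 5512 in Flt3 KO cDC2 and 6086 to 6632 in Flt3L KO cDC2, the same order as Mertk and Axl. It was 2015 to 2254 over the cDC1 groups. The sum adds linear intensities, so bright genes weigh most, and it includes the C1q genes already counted above. C1qa, C1qb and C1qc had means of 146, 118 and 82.2 in WT cDC2 and 679, 478 and 265 in Flt3L KO cDC2. Among defining markers of red pulp macrophages, Cd5l and Slc40a1 were under the lower quartile on both WT cDC2 arrays. Cd5l was so on both Flt3 KO cDC2 arrays, and neither gene on both Flt3L KO cDC2 arrays. Cd5l was still under it on Flt3L KO cDC2 replicate 1 (23.0, against a quartile of 23.8). None of the 18 markers was under it on both arrays of any cDC1 group. Slc40a1, the iron exporter gene, read 20.9 and 17.5 in WT cDC2 and 39.5 and 37.6 in Flt3L KO cDC2, without overlap, and Cd5l read 21.99 and 17.3 against 23.0 and 29.1; both were too dim to be tested. Spic, which encodes a transcription factor of red pulp macrophages, read 139 and 142 in WT cDC2 and 195 and 311 in Flt3L KO cDC2 (adjusted p = 0.0758, limma). Adgre1, which encodes the macrophage antigen F4/80, fell by 0.67 ± 0.10 (SE), from 996 and 943 to 601 and 617. Of the uncalled markers, Cd163, Mrc1 and Marco had means of 28.8, 35.5 and 56.5 in WT cDC2. In Flt3L KO cDC2 these were 28.7, 37.4 and 53.1. Siglec1, Fcgr1, Csf1r and Cd68, also uncalled, had means of 53.0, 43.0, 1198 and 1545 in WT cDC2. In Flt3L KO cDC2 these were 61.7, 53.0, 1500 and 1597.

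Summed monocyte markers were 8561 to 8583 in WT cDC2 and 9330 to 9381 in Flt3L KO cDC2, with 2 of 7 tested genes called higher (Lyz2 and Csf3r, the latter lost without either WT cDC2 replicate or Flt3L KO cDC2 replicate 1, with adjusted p of 0.0565 to 0.0922 in limma). In Flt3 KO cDC2 the summed monocyte markers were 8707 to 9532, a range that holds that of Flt3L KO cDC2. Summed cDC2 markers were 5899 to 6148 in WT cDC2, 5654 to 5733 in Flt3 KO cDC2 and 5490 to 5584 in Flt3L KO cDC2. Summed cDC1 markers were 592 to 652, 784 to 839 and 735 to 750 in the same groups. These sums thus lay off the WT range in Flt3 KO cDC2 as well, where no member was called. The calls that follow are for Flt3L KO cDC2 against WT cDC2. Of 5 cDC2 markers 1 was called lower, Clec4a4, from 332 and 387 to 221 and 222 (adjusted p = 0.0185, limma), a call lost when any 1 of the 4 arrays compared was left out (0.0569 to 0.198). Of 5 cDC1 markers 1 was called higher, Irf8, from 311 and 275 to 431 and 409 (adjusted p = 0.00787), a call lost without WT cDC2 replicate 2 (0.102) or Flt3L KO cDC2 replicate 1 (0.0822). Of the remaining lists in that comparison, 1 of 8 endothelial genes was called (Kdr, higher, lost without either WT cDC2 replicate or Flt3L KO cDC2 replicate 1, with adjusted p of 0.0801 to 0.131), and 0 of 8 stromal, 3 platelet, 3 B cell, 4 neutrophil and 4 pan-cDC genes, where limma gave 1 stromal gene and no gene of the other lists an unadjusted p under 0.05. In cDC2, Timd4, which macrophages of the spleen also express, went the other way from the summed macrophage markers. In cDC1, where Timd4 also fell, these sums overlapped between WT (2071 to 2121) and Flt3L KO (2015 to 2112). The part of macrophages, monocytes or other cells in the differences of Mertk, Axl and Timd4 was not tested.

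**Figure D4:**
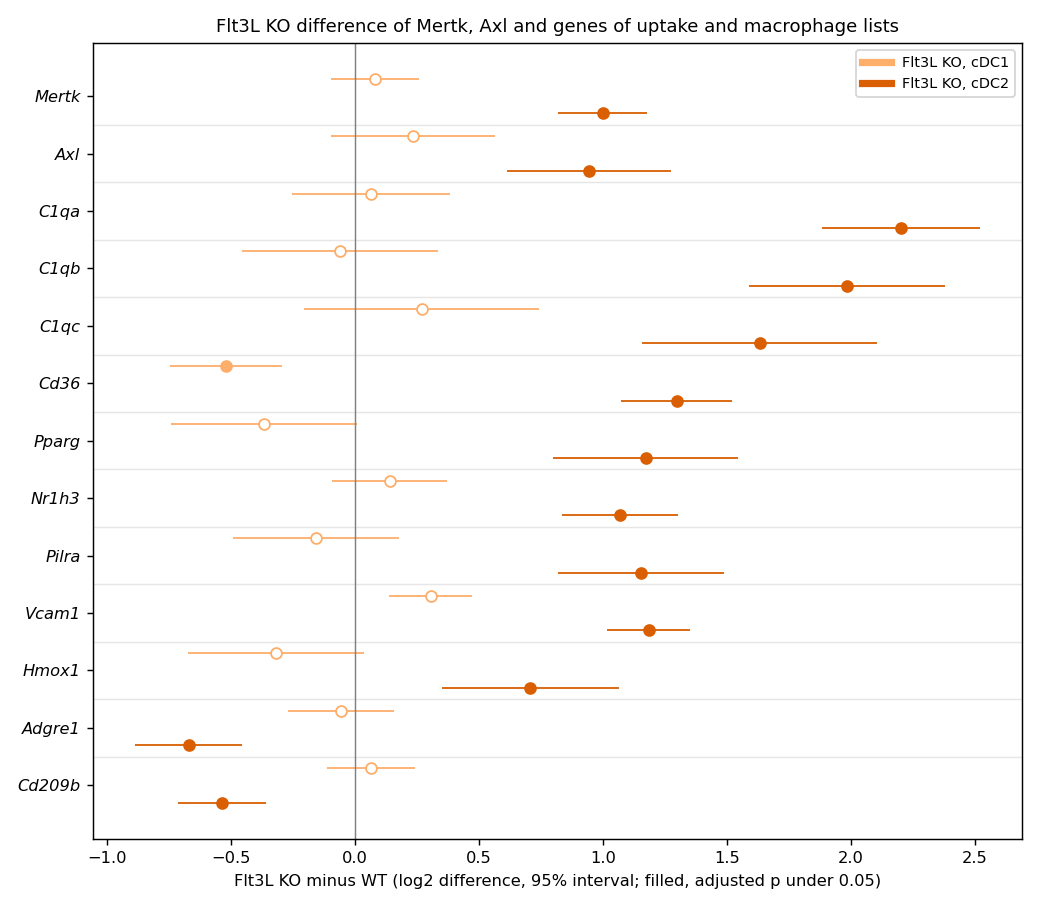
The horizontal axis gives the log2 difference of Flt3L KO from WT with its 95% interval, in cDC1 (light) and cDC2 (dark), for Mertk, Axl and genes of the uptake and macrophage lists; filled points passed the adjusted threshold. The genes beside Mertk and Axl were chosen for being called in cDC2, and the 8 of 16 tested macrophage markers that were not called are not drawn. The related genes Anxa1, S1pr1, P2ry2, Twist1, Socs3 and Lamp1 were also called in cDC2 and are not drawn. Of these, Anxa1 fell and the others rose. Adgre1 and Cd209b lie to the left of 0 in cDC2 and the other 11 to the right, and of the cDC1 points the one for Cd36 is called.

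Tested genes were ranked by their correlation with Mertk and with Axl, leaving out other members and predicted or clone-named genes. Those whose log2 values followed Mertk most closely over the 12 arrays were C1qc (Pearson r = 0.959), Prg3 (0.956) and Tmem26 (0.953). Those closest to Axl were the lysosomal protease gene Ctsd (0.988), Id3 (0.986) and the Fc receptor gene Fcgr3 (0.985). In Flt3L KO cDC2, Tmem26 read 140 to 237, against 75.4 to 80.2 in WT cDC2, and Prg3 85.0 to 88.1 against 47.9 to 50.4. Fcgr3 read 214 to 241 in Flt3L KO cDC2, 124 to 130 in WT cDC2 and 46.0 to 56.9 over the cDC1 groups, and Axl placed these in the same order. Within cDC1 the order differed, with the lowest mean in WT for Fcgr3 (46.3) and in Flt3 KO for Axl (56.2). The coefficients describe 12 arrays in 6 groups and reflect mostly the group means, so they carry no test.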

How the data were processed

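Per the labels, total RNA of 12 sorted samples was amplified and labelled with Ambion WT Expression and GeneChip WT Terminal Labeling kits and hybridised to 1 GeneChip array each. The authors deposited 1 intensity per probe set and array on a linear scale; the summarisation and normalization are not given in the sources used here, and these values were used as deposited. Of 30177 probe sets, the platform table gives 1 symbol for 21789, several for 1621 and does not list 6767. For each of 19938 genes the single-symbol probe set with the highest mean was kept, and genes in the lowest share of 0.25 by mean were dropped, Flt3 and Flt3l excepted (lowest mean log2 tested 4.78). All 9 members had 1 probe set.

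A limma 3.58.1 model (R 4.3.3, statmod 1.5.0; 6 residual degrees of freedom) took log2 values and a mean for each group, with 11 contrasts and Benjamini-Hochberg adjustment over 14953 genes within each. Intervals are 95% intervals from limma. Errors are standard errors, and a median SE of 0.133 applies to differences of effects. The method was tested on simulated data. All 9 members are named, as are Flt3, Flt3l, the called genes with the smallest p of 7 lists of related roles (up to 3 per comparison) and any gene on which a result turns, the cDC1 and cDC2 markers, and for members whose group means span over 1 (log2) the 3 genes with the highest Pearson r. The ranking by Pearson r left out other members and predicted or clone-named genes. Lrp1 and some called genes of the role lists and of 10 marker lists were added to the names with their values in view. The members and lists were chosen with earlier results of these data known. Alternatives are given in the closing section. Promoters are from RefSeq (GRCm38.p6), by symbol.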

Additional observations from a re-analysis of the deposited data

Results flagged for a closer look

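The effect of FLT3L loss differed between cDC2 and cDC1 beyond the threshold for Mertk among the members and for 6 related genes, in a test of the difference itself (limma, Benjamini-Hochberg adjusted over all genes). The log2 effect was larger in cDC2 by 0.92 ± 0.12 (SE) for Mertk (adjusted p = 0.00626). For Cd36 it was larger by 1.82 ± 0.15 (adjusted p = 0.000317), and for the C1q chain genes C1qa and C1qb by 2.14 ± 0.21 (adjusted p = 0.00136) and 2.04 ± 0.26 (adjusted p = 0.00626). The nuclear receptor genes Pparg and Nr1h3 differed by 1.54 ± 0.24 (adjusted p = 0.0165) and 0.93 ± 0.15 (adjusted p = 0.0208), and Pilra by 1.31 ± 0.22 (adjusted p = 0.0216). Leaving out single arrays ended 3 of these calls. That on Pparg was lost without Flt3L KO cDC1 replicate 1 (adjusted p = 0.0696) or WT cDC2 replicate 1 (0.0854) or 2 (0.0677). That on Nr1h3 was lost without Flt3L KO cDC1 replicate 1 (0.0793), WT cDC2 replicate 1 (0.0650) or 2 (0.100) or Flt3L KO cDC2 replicate 1 (0.0690), and with only the arrays compared (0.0762). That on Pilra was lost without WT cDC1 replicate 1 (0.0592), Flt3L KO cDC1 replicate 1 (0.0884), WT cDC2 replicate 1 (0.0975) or Flt3L KO cDC2 replicate 1 (0.0913).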

How the results depend on the processing

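The count of members called for WT cDC1 against cDC2 was 1 in place of 2 under quantile normalization, with no filter on dim genes, with a 0.5 share of genes dropped as dim, with a trended, robust variance prior and with only the arrays compared, where Scarf1 was not called or not tested. With that larger share dropped, Mertk, Tyro3, Gas6, Stab1 and Scarf1 have no value, so it was 3 for Flt3 KO cell types (Mfge8 gained), 1 for Flt3L KO cell types, 2 for Flt3L KO against WT cDC2, 0 for Flt3L KO against Flt3 KO cDC2 and 0 for the difference of Flt3L KO effects. For Flt3 KO cell types it was 3 under quantile normalization and with no filter (Timd4 lost), and for Flt3L KO cell types 3 under quantile normalization (Tyro3 gained). Leaving out each array in turn, the count ranged from 1 to 2 (WT cell types), 2 to 5 (Flt3 KO cell types), 2 to 3 (Flt3L KO cell types), 1 to 3 (Flt3L KO against WT cDC2), 0 to 1 (Flt3L KO against Flt3 KO cDC1), 1 to 2 (the same in cDC2) and 1 to 2 (difference of Flt3L KO effects).

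Uncalled values turned sign. Mertk in Flt3L KO against Flt3 KO cDC1 was -0.0080 under quantile normalization and -0.0267 to 0.0761 with an array left out. With an array left out, Stab1 ranged from -0.104 to 0.0266 (WT cell types) and -0.0153 to 0.115 (Flt3L KO against WT cDC1), Scarf1 from -0.161 to 0.0627 (Flt3 KO cell types), Gas6 from -0.130 to 0.0432 (Flt3L KO cell types) and -0.147 to 0.0259 (Flt3L KO against WT cDC1), Axl from -0.379 to 0.0720 (Flt3 KO against WT cDC1), Tyro3 from -0.0344 to 0.0502 (Flt3L KO against WT cDC1) and -0.240 to 0.126 (the same in cDC2), and Timd4 from -0.344 to 0.0063 (difference of Flt3 KO effects).

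The labels do not say what equal replicate numbers share, so they were not taken as pairs. Replicate differences correlated over genes by 0.0885 to 0.159 between cell types of 1 genotype, 0.0375 to 0.172 between the knockouts and -0.199 to -0.049 between WT and knockouts. With the replicate number as a block, Timd4 between Flt3 KO cell types lost its call (adjusted p = 0.0528, limma), and no other member call changed; all genes called went from 178 to 118 for Flt3L KO against WT cDC1. A block of crossed numbers, chosen after seeing the data, called Mfge8 between Flt3 KO cell types (adjusted p = 0.0357) and changed no other count of members.

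Counts over all genes moved by more than 1.5 times as follows. For Flt3 KO against WT cDC1 (12) they were 35 with the robust prior, 22 with the 0.5 share dropped, 20 with the crossed block, 7 with the mean of probe sets and 3 with only the arrays compared. For Flt3 KO against WT cDC2 (16) they were 36 with the robust prior, 10 without a filter and 9 with the 0.5 share dropped. For Flt3L KO against WT cDC1 (178) they were 545 with the robust prior, 363 with the 0.5 share dropped, 281 with the crossed block, 98 without a filter and 6 with only the arrays compared. The robust prior gave 487 for Flt3L KO against WT cDC2 (291), 401 and 268 for the knockouts against each other in cDC1 (132) and cDC2 (139), 208 for the difference of Flt3L KO effects (74) and 5 for that of Flt3 KO effects (0). The knockouts in cDC1 also gave 267 with the 0.5 share dropped, 236 with the crossed block, 86 without a filter and 78 with only the arrays compared, and in cDC2 236 with the crossed block. The difference of Flt3L KO effects gave 122 with the crossed block, 118 with the 0.5 share dropped and 37 with only the arrays compared, and that of Flt3 KO effects 1 with the crossed block. With an array left out, counts ranged from 3 to 1132 (Flt3 KO against WT cDC1), 25 to 606 (Flt3L KO against WT cDC1), 20 to 484 (difference of Flt3L KO effects) and 0 to 170 (difference of Flt3 KO effects), each highest without WT cDC1 replicate 2. They ranged from 2 to 21 (Flt3 KO against WT cDC2), 72 to 484 (Flt3L KO against WT cDC2), and 16 to 349 and 8 to 224 (the knockouts against each other in cDC1 and cDC2), each highest without either WT cDC1 replicate; the lowest came without an array of the groups compared. The cause was not tested. With 2 arrays a group, signal near background limits Mertk in cDC1 and WT cDC2 and Pros1 in all groups.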
